A study of Mus musculus with 4 samples.

Results

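The 10 genes Apoe, Lpl, Fabp4, Fabp5, Cd36, Plin2, Abca1, Abcg1, Trem2 and Mertk serve lipid uptake, storage and efflux, and were followed through the cells of malignant mouse ascites. All 10 were listed among the 29835 genes of the single-cell matrices. They were chosen by name, and their levels were read in cell classes set by unique molecular identifiers (UMIs, counts of single captured RNA molecules) of other genes. Tumour cells had at least 5 UMIs of Krt7, Krt8, Krt18, Krt19 and Wt1 together and none of Ptprc. Monocytes had at least 3 UMIs of Lyz2, at least 1 of Ly6c2 and at most 1 of the complement genes C1qa, C1qb and C1qc. Macrophages had at least 5 C1q UMIs and at most 2 UMIs of the 4 keratins, and were divided at 3 UMIs of Retnla into Retnla- and Retnla+ cells. These classes held 29952 of the 45178 cells kept.

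The ascites came from female C57BL/6 mice of a single age, injected into the peritoneum with ID8-Trp53-/- cells, a mouse ovarian surface epithelial line that lacks Trp53 and carries an infrared fluorescent label. The ascites cells were depleted of erythrocytes and frozen before capture, and dead cells were removed where this applied. Dosing began 7 days after injection and ended at about 3 mL of ascites. DMSO with an IgG2a isotype antibody served as control. The BTYNB mice received the Igf2bp1 inhibitor BTYNB with that IgG, the anti-PD-1 mice DMSO with an antibody that blocks PD-1 (clone RMP1-14), and the combination mice BTYNB with the blocking antibody. The labels give 50 mg/kg of BTYNB and 100 ng of antibody per dose, but different amounts stand in the study's methods. Each group is 1 library of cells pooled from its animals, so no value carries the spread between animals and no difference between libraries was tested. Every interval is a 95% interval and covers counting error only. Where 4 values stand in a row, they follow the order control, BTYNB, anti-PD-1, combination.

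Macrophages take up lipoproteins and dying cells, and must then store, burn or export the lipid. Lpl, a lipase, frees fatty acids from lipoproteins and Cd36 carries fatty acids and oxidised lipoprotein into the cell. Fabp4 and Fabp5 shuttle fatty acids inside it, and Plin2 coats the lipid droplets in which they are stored. Abca1 and Abcg1 pump cholesterol out onto acceptors such as apolipoprotein E, the product of Apoe, and are targets of the liver X receptors (LXR), which sense oxysterols. Trem2 binds lipids and apolipoproteins and signals through Tyrobp, and Mertk, a TAM receptor, engulfs apoptotic cells.

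Promoter sequence was at hand for 6 of the 10 genes, in RefSeq windows on build GRCm38.p6. It is shown for Abca1, an LXR target, and for Trem2, whose level in tumour cells set a library apart. Each line gives the 250 bases before the start of transcription. Capitals mark TGACC and GTAACC with any 4 bases between them, the form of the LXR element known in this promoter, in Abca1 (chr4:53159896-53160145, minus strand), and TGANTCA, an AP-1 site, in Trem2 (chr17:48346151-48346400, plus strand).
Abca1: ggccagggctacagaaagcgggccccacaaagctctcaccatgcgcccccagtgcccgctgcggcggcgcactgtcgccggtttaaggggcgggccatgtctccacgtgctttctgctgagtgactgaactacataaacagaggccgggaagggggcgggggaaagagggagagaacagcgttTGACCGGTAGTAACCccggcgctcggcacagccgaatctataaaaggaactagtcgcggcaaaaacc
Trem2: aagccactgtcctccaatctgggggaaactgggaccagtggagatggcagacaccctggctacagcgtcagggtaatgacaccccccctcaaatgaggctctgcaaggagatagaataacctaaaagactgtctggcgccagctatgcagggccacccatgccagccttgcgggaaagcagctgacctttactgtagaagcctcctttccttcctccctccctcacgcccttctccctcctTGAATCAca
Searched on both strands, the Abca1 letters stood in 12 of 32851 promoters of the same length (0.0365%) and in 1 of 8 windows of the 6 genes, 67 bases before the start. The AP-1 letters stood in 6.75% of all promoters and in 1 of the 8 windows, 9 bases before the Trem2 start. The letters ACGTG, the core of hypoxia response elements, were found in 16.6% of all promoters and of the 6 genes in Abca1 alone. The LXR repeat of AGGTCA and AGGTCA with any 4 bases between (0.0152% of promoters), the PPAR repeat with any 1 base between (0.0335%), the PU.1 letters GAGGAAGT (2.44%) and the MAF letters TGCTGAC (3.81%) were in none of the 8 windows. Matches overlapping another motif were not removed, and a match is a description of letters, not of a bound site.

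The libraries held 7858, 19247, 12163 and 7074 cells, with 78603888 to 114600397 UMIs each. The median cell was shallower in BTYNB (2562 UMIs) than in the other libraries (6908 to 9480.5 UMIs). At most 4 cell indices were shared by any pair of libraries. The tumour class held 7114, 3606, 10923 and 4369 cells, and the Retnla- macrophage class 205, 1528, 354 and 762. The Retnla+ class held 37, 77, 10 and 161 cells and the monocyte class 28, 723, 22 and 94. A level is given in CPM, the UMIs of a gene per 1000000 UMIs of the class, and is set between libraries only where both hold at least 50 cells.

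Markers were read to describe the classes, and they bore out the name of the monocytes only in part. The 10 macrophage markers summed to 7664 to 9020 CPM in Retnla- macrophages, against 271 to 415 CPM in tumour cells. C1qa, C1qb and C1qc are among them and also set the macrophage class, so part of this gap was fixed by the rule. The tumour genes Msln, Upk3b and Upk1b set no class, and in Retnla- macrophages they were at 6.65%, 1.73%, 14.2% and 6.12% of their tumour level. The monocyte class of control and anti-PD-1 carried the tumour genes Msln, Upk3b and Upk1b at 78.0% and 79.6% of their tumour level, and that of the combination at 44.8%, against 8.21% in BTYNB. Of its cells, 13 of 28, 13 of 22 and 15 of 94 also passed as tumour cells. Neutrophil genes summed to 6247 CPM in the control monocytes and 8632 CPM in those of BTYNB, and 7 dendritic cell genes to 981 CPM in the combination. Apart from an alternative that subtracts tumour RNA, the part of these other cells in the monocyte values was not tested. Monocyte values of control and anti-PD-1 are used for no ratio between libraries.

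Of the 10 genes, 9 stood higher in Retnla- macrophages than in tumour cells in 4 of 4 libraries, and Lpl stood lower in 4 of 4. Here, in the later comparisons of classes and in the Ccr2 division, the share over all genes was not counted. The numbers of members therefore describe these 10 genes only. The differences are means over libraries on the log2 scale with 1 CPM added. They were 7.42 ± 0.47 (SD, n = 4) for Apoe, 6.44 ± 0.43 for Cd36, 6.08 ± 0.41 for Abcg1, 4.05 ± 0.58 for Mertk, 3.57 ± 0.33 for Abca1 and 2.96 ± 0.65 for Trem2. Smaller differences belonged to Fabp4 (2.56 ± 1.26), Plin2 (1.31 ± 0.32) and Fabp5 (1.07 ± 0.56), and the Lpl difference was -0.42 ± 0.17. In each case the exact two-sided sign-flip permutation test over the 4 libraries gave p = 0.13, the smallest it can give, and 0.163 after Benjamini-Hochberg adjustment over the 30 comparisons of classes, so no difference could pass 0.05.

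**Figure D1:**
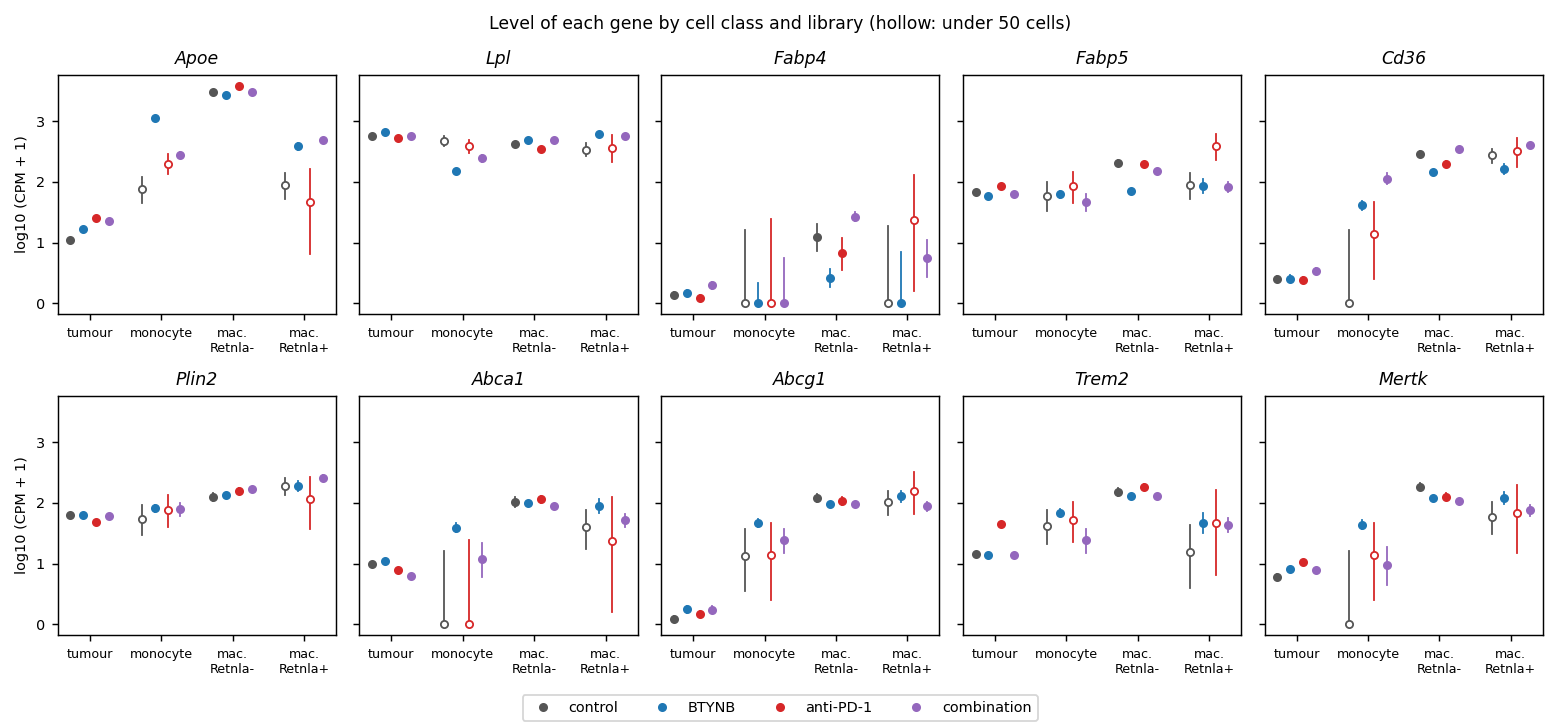
Level of each of the 10 genes (log10 of CPM + 1, y axis) in 4 cell classes (x axis) and 4 libraries (colours), with lines for the 95% counting interval and hollow points for under 50 cells. Apoe is at 2677 to 3756 CPM in Retnla- macrophages and at most 24.6 CPM in tumour cells, whereas Lpl is at 341 to 669 CPM in both.

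Apoe, the lipid-carrying apolipoprotein, was at 3041, 2677, 3756 and 2964 CPM in Retnla- macrophages. Shares of cells were read after thinning each cell to 2000 UMIs, with shallower cells left out. In Retnla- macrophages this left out 128 of BTYNB and none of the other libraries. Of the thinned cells, 81.5%, 75.6%, 88.7% and 70.9% had an Apoe UMI. In T cells of the BTYNB library, which should lack the gene, it was 2.93% of the 1126 cells left, with 1057 left out. The macrophage levels were highest in anti-PD-1 and lowest in BTYNB, and monocytes of BTYNB were lower at 1122 CPM (1086 to 1158) and those of the combination at 276 CPM (241 to 314). In tumour cells Apoe was at 10.1, 15.8, 24.6 and 21.2 CPM. The C1q level in tumour cells was 0.175%, 0.174%, 0.406% and 0.553% of that in all macrophages, higher in both libraries with the antibody but level between control and BTYNB. The 10 macrophage markers together were in another order there, at 308, 401, 271 and 415 CPM, with anti-PD-1 lowest. With macrophage RNA subtracted at those shares, 5.54, 11.4, 9.72 and 7.38 CPM of tumour Apoe were left, and BTYNB in place of anti-PD-1 was highest.

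The exporters Abca1 and Abcg1 differed by less than 2-fold between the Retnla- macrophages of any pair of libraries. Abca1, which loads cholesterol onto lipid-poor apolipoproteins, was at 102, 99.03, 113 and 86.2 CPM in Retnla- macrophages. The interval of the combination (78.8 to 94.1) lay below that of anti-PD-1 (97.3 to 131), and the other intervals overlapped. Abcg1, which exports cholesterol to mature lipoproteins, was at 120, 93.2, 108 and 94.4 CPM. In tumour cells Abca1 was at 8.71, 10.02, 6.81 and 5.18 CPM, so the combination stood lowest and apart from BTYNB (4.60 to 5.81 against 9.22 to 10.9). Abcg1 stayed at or below 0.760 CPM there, and subtraction of macrophage RNA left 0.0351 to 0.594 CPM of it.

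Lpl was read at a like level in tumour cells and macrophages. Tumour cells had 563, 669, 518 and 556 CPM, Retnla- macrophages 415, 485, 341 and 486 CPM, and Retnla+ macrophages 338, 605, 363 and 559 CPM. Type 1 dendritic cells of BTYNB and combination, gated on Xcr1 and Clec9a, held 13.2 and 27.0 CPM of it. The macrophage levels of both libraries lay above these. In Retnla- macrophages the tumour genes Msln, Upk3b and Upk1b were at 6.65%, 1.73%, 14.2% and 6.12% of their tumour level, and subtracting tumour RNA at these shares was 1 of the alternatives run. A thinned Lpl UMI was seen in 58.6% to 64.3% of tumour cells and in 28.9% to 42.7% of Retnla- macrophages.

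Of the fatty acid genes, Cd36 and Fabp4 were low in tumour cells, while Fabp5 and the droplet gene Plin2 were also read in tumour cells. Cd36 in Retnla- macrophages was at 287, 146, 197 and 345 CPM, with no overlap between the intervals of BTYNB (138 to 155) and the other 3. Fabp5 was at 202, 69.1, 192 and 147 CPM, again lowest in BTYNB (63.7 to 74.9). Fabp4 rested on 14, 14, 9 and 150 UMIs, or 11.4, 1.62, 5.66 and 25.8 CPM. Adipocyte genes (Adipoq, Lep, Plin1, Cidec and Cfd) summed to at most 1.55 CPM in these macrophages and were all at 0 in control. Plin2 was at 123, 136, 157 and 168 CPM, and its 4 intervals spanned 104 to 179 CPM.

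In tumour cells Cd36 was at 1.41 to 2.40 CPM and Fabp4 at 0.218 to 0.985 CPM in the 4 libraries, against 47.8 to 62.6 CPM of Plin2. Fabp5 was at 67.1, 57.4, 82.8 and 62.0 CPM. Subtracting macrophage RNA took 0.816 of the 1.41 CPM of Cd36 in anti-PD-1 and 1.96 of the 2.40 CPM in the combination, but at most 1.02 CPM of Plin2 and 0.801 CPM of Fabp5 in any library.

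The receptors Trem2 and Mertk were both highest in Retnla- macrophages. Trem2 was at 150, 131, 180 and 127 CPM, and the interval of anti-PD-1 (160 to 203) overlapped that of control alone (129 to 174). Mertk was at 182, 120, 126 and 108 CPM, with control (159 to 208) above the intervals of the other 3. In tumour cells Mertk was at 5.13, 7.01, 9.46 and 6.81 CPM. Trem2 there was at 44.5 CPM (43.1 to 46.0) in anti-PD-1, against 13.3, 13.1 and 12.6 CPM in control, BTYNB and the combination. That library alone stood apart.

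The comparison of Retnla+ with Retnla- macrophages asked whether the lipid genes divide between the 2 macrophage classes. Apoe, Trem2, Abca1 and Mertk were lower in Retnla+ cells in 4 of 4 libraries. In Retnla+ cells Apoe was at 86.9, 381, 45.3 and 495 CPM, the value of anti-PD-1 on 2 UMIs in 10 cells, and no Retnla+ interval reached a Retnla- one. The mean difference was -4.21 ± 1.82 (SD, n = 4, log2 scale), and -2.70 over BTYNB and combination, the libraries with at least 50 Retnla+ cells. The difference of Trem2 was -2.08 ± 0.83, that of Abca1 -1.14 ± 0.90 and that of Mertk -0.76 ± 0.68, and with the 2 larger libraries alone they were -1.53, -0.46 and -0.27. For each of these 4 genes the exact two-sided sign-flip permutation test gave p = 0.13, 0.163 after adjustment.

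The other 6 genes differed in no common direction. Cd36 was at 270, 164, 317 and 402 CPM in Retnla+ cells, a difference of 0.24 ± 0.32 (SD, n = 4) from Retnla- cells, higher in 3 of 4 libraries. Plin2 was at 188, 188, 113 and 255 CPM (0.30 ± 0.51, higher in 3 of 4). Lpl (0.08 ± 0.27), Abcg1 (0.16 ± 0.40) and Fabp5 (-0.19 ± 1.02) also differed by less than the spread between libraries. Fabp4 was at 0 UMIs in Retnla+ cells of control and BTYNB, which allows up to 14.5 and 4.78 CPM, and at 1 and 6 UMIs in the other libraries. The exact p of these 6 genes, by the same permutation test, lay between 0.25 and 0.875. Ccr2, a receptor of recruited monocytes, was at 1497 to 1868 CPM in Retnla+ cells and at 348 to 1645 CPM in Retnla- cells, and its part in the difference was not tested.

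**Figure D2:**
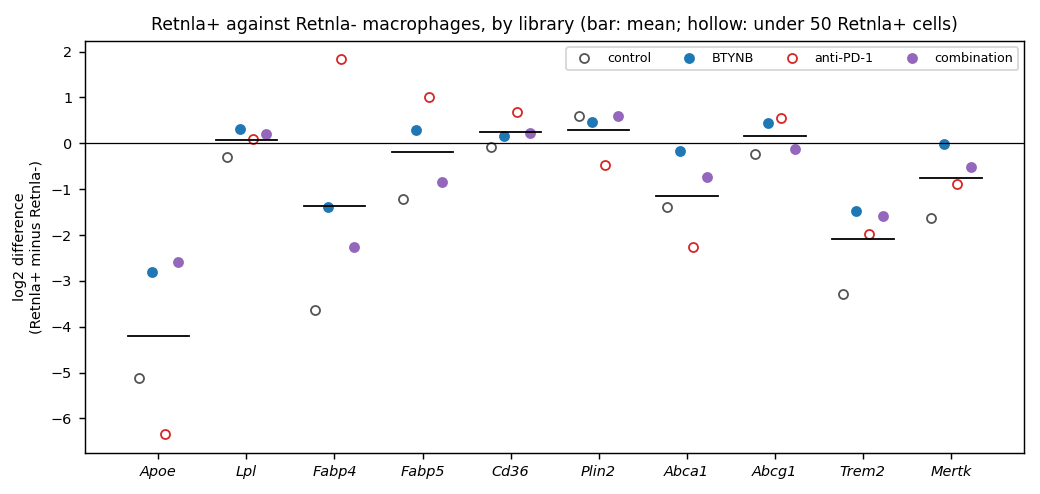
Difference of each gene between Retnla+ and Retnla- macrophages (y axis, log2 of CPM + 1) in each library (points; hollow where under 50 Retnla+ cells), with the mean over 4 libraries as a bar. All 4 points lie below 0 for Apoe, Abca1, Trem2 and Mertk, and points of both signs are seen for the other 6 genes.

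The monocyte class stood below Retnla- macrophages in 4 of 4 libraries for 8 of the 10 genes. These 8 genes were also lower in tumour cells than in Retnla- macrophages in every library. Tumour genes in the monocyte class stood at 78.0% (control) and 79.6% (anti-PD-1) of their tumour level. For these libraries the sign therefore cannot tell monocytes from tumour cells in the class. In BTYNB, whose monocyte class held 723 cells, the log2 difference of macrophages from monocytes was 1.25 for Apoe, 1.83 for Cd36, 1.47 for Mertk, 1.35 for Abca1, 0.93 for Trem2 and 0.16 for Fabp5. In the combination it was 3.42, 1.62, 3.51, 2.86, 2.40 and 1.68 for these genes. Cd36, Abca1 and Mertk were at 0 in the 28 control cells, which allows up to 12.4 CPM. Fabp4 was at 0 UMIs in the monocytes of every library. In control and anti-PD-1 this allows 12.4 and 19.1 CPM, above the macrophage levels of 11.4 and 5.66 CPM, so its direction is not set there and its test is not used. For the 8 genes the exact sign-flip permutation test gave p = 0.13 (0.163 adjusted), again the smallest it can give. That test counts control and anti-PD-1, so it has the same limit. Lpl was higher in macrophages in 2 of 4 libraries, BTYNB and combination (exact p = 0.5, 0.536 adjusted). In control and anti-PD-1, whose monocyte class carried tumour genes, it was lower. The mean difference of Lpl over 4 libraries was 0.59, and ran from 0.22 to 5.73 over the alternatives, which included subtraction of tumour RNA. Apart from that subtraction the part of tumour RNA was not tested.

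The question of the BTYNB contrasts was how the macrophages of treated mice differed, first without and then with the PD-1 antibody. In Retnla- macrophages of BTYNB against control, Fabp5 was the single member at least 2-fold lower (202 to 69.1 CPM, log2 ratio -1.53, interval -1.76 to -1.33) among 9 with at least 50 UMIs, and none was at least 2-fold higher. Of 9659 genes, 6.26% were lower and 4.11% higher by that fold. Cd36 (-0.97, -1.14 to -0.80) fell just short, and Fabp4 (-2.25, -4.00 to -1.64) had too few UMIs to be counted. The other 7 genes ranged from -0.60 for Mertk to 0.22 for Lpl, and the members' median was -0.20 against -0.04 over all genes. Over the alternatives Cd36 ran from -1.41, where cells were averaged in place of summed, to -0.74 above a common UMI floor. In the combination against anti-PD-1, Fabp4 was the single member past the fold (2.01, 1.22 to 3.34, on 9 and 150 UMIs), where 2.31% of 9312 genes were higher and 2.34% lower. Its ratio ran from 0.49 in cells above a common UMI floor to 4.94 in strict gates. Fabp5 (-0.38, -0.57 to -0.19) lay below 0 in that contrast too, while Cd36 (0.80, 0.63 to 0.98) lay above 0.

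The anti-PD-1 contrasts followed. Against control, no member of Retnla- macrophages differed 2-fold, and 1.23% of 6821 genes were higher and 0.909% lower by that fold. Cd36 (-0.54, -0.76 to -0.31) and Mertk (-0.53, -0.82 to -0.25) were the lowest of the 9 counted. In the combination against BTYNB 3 members were higher and none lower, where 2.99% of 10529 genes were higher and 0.988% lower. They were Fabp4 (3.35, 3.20 to 4.90), Cd36 (1.23, 1.14 to 1.34) and Fabp5 (1.08, 0.94 to 1.25). Cd36 fell short of the fold above a common UMI floor (0.89), as did Fabp5 with 10 CPM added (0.99). The 4 contrasts share libraries, and the 3 fatty acid genes were all lowest in BTYNB.

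**Figure D3:**
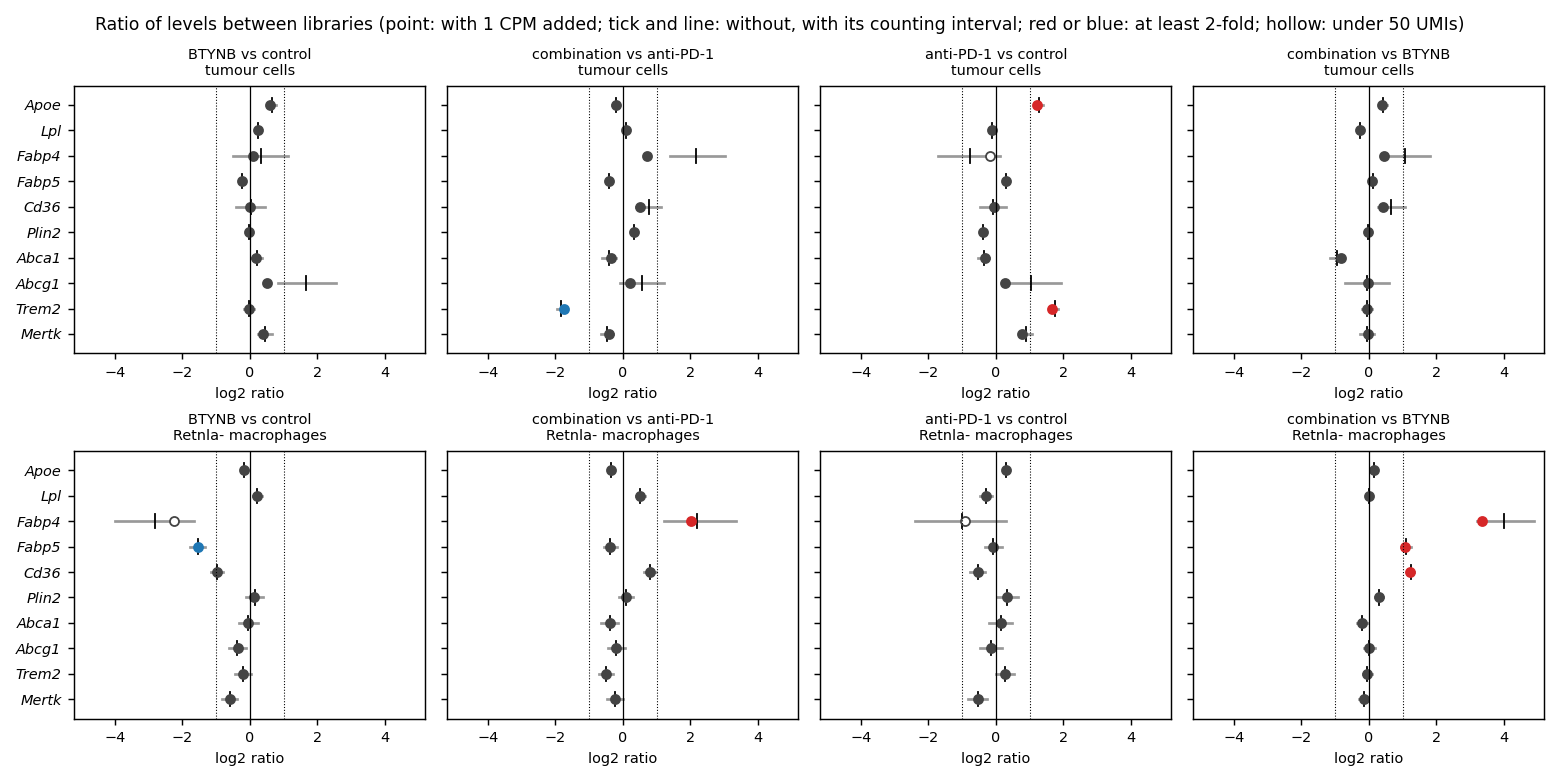
Log2 ratio of each gene between libraries (x axis) in tumour cells (top) and Retnla- macrophages (bottom) for the 4 contrasts, with 1 CPM added (points) and without it (ticks, with the 95% counting interval as a line); dotted lines mark the 2-fold limits. In macrophages Fabp4, Fabp5 and Cd36 pass the limit in at least 1 contrast, and in tumour cells Apoe and Trem2 do.

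Values of other genes moved with these ratios. The 7 monocyte markers summed to 1303, 4048, 1270 and 1529 CPM in Retnla- macrophages, all 7 with UMIs in each library. Ccr2 among them was at 610, 1645, 348 and 757 CPM. Fibroblast genes (5 of 6 seen) summed to 355, 9.61, 651 and 83.4 CPM, the 9 tumour markers to 204, 103, 406 and 208 CPM, and haemoglobin genes to 27.8, 214, 11.9 and 286 CPM. Apart from the alternative with tumour RNA subtracted, the part of fibroblast, tumour and red cell RNA in the ratios was not tested. For Ccr2 the macrophages were divided, in cells thinned to 2000 UMIs, into those with and without a UMI of it, a division made after the values had been seen.

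Levels of Apoe, Fabp5, Cd36, Fabp4, Abca1, Trem2 and Mertk were higher in cells without a Ccr2 UMI than in cells with one in each of the 4 libraries, although in anti-PD-1 the ratio intervals of Fabp4, Abca1 and Trem2 reached 0. Cells with the UMI numbered 78, 1097, 95 and 363, and cells without it 127, 303, 259 and 399. Cd36 in cells without Ccr2 was at 335, 365, 211 and 475 CPM, so BTYNB was no longer lowest. In cells with Ccr2 it was at 205, 77.7, 159 and 196 CPM, with BTYNB lowest. Fabp5 was lowest in BTYNB on both sides: 276, 129, 220 and 222 CPM in cells without Ccr2, and 76.97, 49.4, 114 and 62.0 CPM in cells with it. Apoe in cells without Ccr2 was at 4074, 5795, 4382 and 4491 CPM, highest in BTYNB, where all Retnla- macrophages together had been lowest. In cells with Ccr2 it was at 1293, 1670, 2021 and 1212 CPM, so BTYNB stood above control on both sides of the division. Fabp4 in cells without Ccr2 was at 16.9, 6.79, 6.85 and 44.7 CPM on 13, 14, 8 and 139 UMIs.

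**Figure D4:**
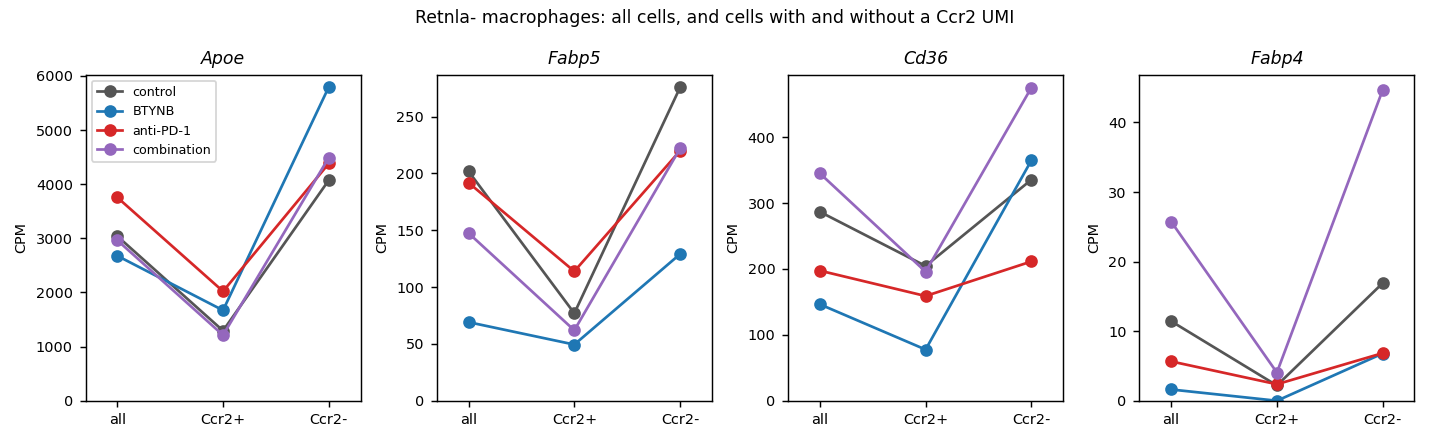
Level (CPM, y axis from 0) of Apoe, Fabp5, Cd36 and Fabp4 in all Retnla- macrophages and in those with and without a Ccr2 UMI, 1 line per library. Each library has its higher level in cells without Ccr2, and the BTYNB point of Cd36 moves from the lowest of 4 (146 CPM, all cells) to the second highest (365 CPM).

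Monocytes and Retnla+ macrophages allowed the combination to be set against BTYNB only. In the monocyte class 4 of 9 members were at least 2-fold lower and 1 was higher, where 7.86% and 8.56% of 7893 genes were. Apoe (1122 to 276 CPM, log2 ratio -2.02), Mertk (42.8 to 8.57 CPM, -2.19), Abca1 (38.3 to 11.02 CPM, -1.71) and Trem2 (68.0 to 23.3 CPM, -1.51) were the lower ones, the last 3 on 7, 9 and 19 UMIs in the combination. Cd36 was the higher one (40.4 to 111 CPM, 1.44, 1.06 to 1.86), and type 1 dendritic cells of the combination, whose genes the class holds, had 325 CPM of it. Above a common UMI floor the monocyte ratio of Cd36 was 0.94, under the fold. The monocyte class also differed in make-up, with tumour genes at 44.8% of their tumour level in the combination and 8.21% in BTYNB. Macrophage markers summed to 771 and 1444 CPM in these libraries, and neutrophil genes to 28.2 and 8632 CPM. Apart from the subtraction of tumour RNA, the part of this make-up in the monocyte ratios was not tested. In Retnla+ macrophages Cd36 was again the single member past the fold (164 to 402 CPM, 1.29, 0.98 to 1.61), against 1.58% of 5051 genes higher and 1.78% lower.

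Tumour cells of anti-PD-1 against control had 2 of 9 members at least 2-fold higher and none lower, where 2.18% of 15975 genes were higher and 0.326% lower. They were Trem2 (13.3 to 44.5 CPM, log2 ratio 1.67, 1.64 to 1.84) and Apoe (10.1 to 24.6 CPM, 1.20, 1.16 to 1.41). Mertk (0.77, 0.70 to 1.06) came next. Plin2 (-0.38, -0.45 to -0.33) was the lowest. In the combination against anti-PD-1 Trem2 was the single member past the fold (-1.74, -1.94 to -1.70), where 2.0% of 15881 genes were lower and 0.497% higher. Apoe differed by -0.20 (-0.31 to -0.11) in that contrast. With macrophage RNA subtracted the Apoe ratio of anti-PD-1 over control was 0.71, under the fold, while that of Trem2 ran from 1.22 to 1.74 over the alternatives run.

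In tumour cells of BTYNB, no member differed 2-fold from control or from the combination. Against control 0 of 10 passed, where 0.321% of 15557 genes were higher and 0.495% lower, and ratios ran from -0.22 for Fabp5 to 0.60 for Apoe (0.51 to 0.79). In the combination against BTYNB 0 of 10 passed, where 0.0910% of 15389 genes were higher and 0.0455% lower, and Abca1 (-0.84, -1.16 to -0.75) was the lowest. Ratios without the added 1 CPM are larger for the rarest members: that of Abcg1 in BTYNB against control has an interval of 0.84 to 2.54, on 44 and 18 UMIs. Igf2bp1, the target of BTYNB, was at 8.60, 9.21, 12.2 and 11.5 CPM in tumour cells. The drug acts on the protein, so this level is no check of its action.

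In each library cells with 2 or more Trem2 UMIs were a small part of the tumour cells and held much of the Trem2. In anti-PD-1 771 of 10923 tumour cells (7.06%, 6.59 to 7.55%) had 2 or more Trem2 UMIs and held 75.3% of the 3670 UMIs, with up to 17 in a cell. The corresponding shares of cells were 2.66% in control, 4.38% in BTYNB, whose tumour cells were deeper, and 3.00% in the combination. These cells held 44.8%, 67.2% and 51.1% of the Trem2 UMIs in control, BTYNB and the combination. They were picked by these same UMIs, so a large held share is partly built in. Thinned to 2000 UMIs, 6.36% of anti-PD-1 tumour cells (5.91 to 6.84%) had a Trem2 UMI, against 2.33%, 2.03% and 2.36% in control, BTYNB and the combination. Unthinned, the shares were 10.4%, 11.3%, 15.3% and 10.9%. In B cells of BTYNB it was 0.246% of 1220 thinned cells, with 1880 shallower ones left out.

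Tumour cells with and without Trem2 were then compared for macrophage genes. These groups were set by Trem2 itself, after its values were seen, and are described without a test. Cells with 2 or more Trem2 UMIs were deeper, with a median of 8360 against 6978 UMIs in anti-PD-1. Anti-PD-1 tumour cells with 2 or more Trem2 UMIs had 14.4 CPM of C1qc against 10.6 in cells without Trem2, 13.1 against 6.13 CPM of Tyrobp, and 694 against 676 CPM of Krt18. The tumour genes Krt8 (423 against 488 CPM), Wt1 (596 against 669 CPM) and Msln (38.3 against 80.5 CPM) were lower in these Trem2 cells. In the combination, cells with 2 or more Trem2 UMIs had 93.0 CPM of C1qc against 9.98 and 271 CPM of Lyz2 against 35.2. The C1qc values were 20.4 against 3.88 CPM in control and 7.93 against 3.76 CPM in BTYNB. Trem2 cells of BTYNB had 7.93 against 4.78 CPM of Tyrobp and 14.6 against 8.36 CPM of Fcer1g, and those of anti-PD-1 22.5 against 12.4 CPM of Fcer1g. Lyz2 was at 75.3 against 31.6 CPM in anti-PD-1 and at 34.0 against 13.7 CPM in BTYNB. The ratio of C1qc was smallest in anti-PD-1, whereas the ratios of Tyrobp and Fcer1g were smaller in BTYNB. Of the anti-PD-1 Trem2 cells, 7.13% had any C1q UMI, against 5.89% of those without Trem2, and in the combination 15.3% against 11.7%. Apoe was higher in Trem2 cells of each library, at 51.8 against 18.2 CPM in anti-PD-1 and 107 against 15.4 CPM in the combination.

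The 10 genes most above the cells without Trem2 in anti-PD-1 were Mpzl2 (122 against 6.52 CPM), Plvap (182 against 12.4), Flvcr2, Cftr, Gpr182, Emb (2375 against 410), Hspa12b, Gadd45a, Tulp2 and Hapln1, by the ratio with 5 CPM added among genes with at least 30 UMIs. In the combination the corresponding 10 were Wfdc17, Lyz2, C1qc, Ccl6, Apoe, Arg1, Ctss, C1qa, C1qb and Fcer1g, a list led by macrophage genes. That of control also held Lyz2, C1qc, C1qa and Apoe. That of BTYNB (Cst8, Hp, Alcam, Olfml3, Ank, Emb, Lcn2, Enpp2, Ly6a and Ndnf) held no C1q gene and no Lyz2, and shared Emb with anti-PD-1. Cells with at least 5 Cd24a UMIs, 1291 in anti-PD-1 against 45 to 58 in the other libraries, made up 18.8% of the anti-PD-1 Trem2 cells and 10.9% of those without Trem2. Trem2 was at 47.6 CPM in the Cd24a-high and at 43.9 CPM in the other anti-PD-1 tumour cells, so the level was as large without the former. Leaving out Cd24a-high cells from all libraries, Trem2 (1.64) and Apoe (1.24) were still past the fold in anti-PD-1 against control, where 1.44% of 15735 genes were higher and 0.241% lower. Trem2 was still the single one in the combination against anti-PD-1 (0.288% higher and 1.28% lower). None of the 10 passed in BTYNB against control (0.381% higher and 0.510% lower) or in the combination against BTYNB (0.0913% and 0.0457%).

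**Figure D5:**
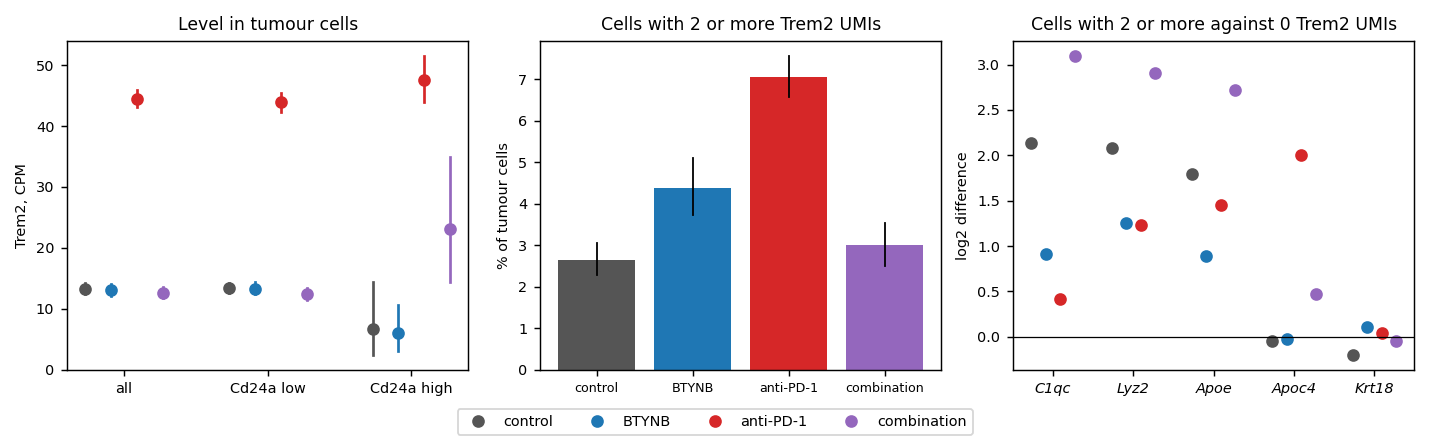
Trem2 in tumour cells: level in all, Cd24a-low (under 5 UMIs) and Cd24a-high cells (CPM with 95% counting intervals, left), percent of tumour cells with 2 or more Trem2 UMIs (with exact binomial intervals, middle), and log2 difference (1 CPM added) of 5 genes between those cells and cells without Trem2 (right). Anti-PD-1 lies at 43.9 to 47.6 CPM on the left, above control, BTYNB and combination, and has the smallest C1qc difference on the right.

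Other members did differ between the Cd24a-high and the remaining tumour cells of anti-PD-1. Fabp5 was at 235 against 54.7 CPM, Mertk at 16.5 against 8.16 CPM, Lpl at 303 against 558 CPM and Plin2 at 19.3 against 53.1 CPM. Apoe was at 19.5 against 25.5 CPM. In the other 3 libraries, with 45 to 58 Cd24a-high cells each, Fabp5 was at 57.4, 26.0 and 61.9 CPM in them, so the high Fabp5 level was seen in the anti-PD-1 cells alone. Without the Cd24a-high cells the log2 ratio of Fabp5 in anti-PD-1 over control turned from 0.30 to -0.29.

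Genes of the same pathways were counted in lists chosen with earlier results of these data known. In tumour cells of anti-PD-1 against control, 3 of 14 counted efflux, LXR and PPAR genes were at least 2-fold higher and none lower. Over all genes 2.18% were higher and 0.326% lower in this contrast, which holds for each list here. The list's median log2 ratio was 0.21, against -0.05 over all genes. They were Apoc1 (2.08 to 12.9 CPM) and Apoc4 (0.0267 to 22.7 CPM, on 2 and 1871 UMIs), apolipoproteins of the Apoe cluster, and Pparg (0.467 to 4.03 CPM), a fatty acid sensing receptor. Of 7 fatty acid genes Angptl4, an Lpl inhibitor, was higher (30.9 to 94.9 CPM) and Acsl1, which activates fatty acids, was lower (5.80 to 2.38 CPM). Of 10 droplet and breakdown genes Hilpda, which restrains droplet lipolysis, was higher (29.3 to 100.2 CPM). Spp1 (17.8 to 189 CPM) and Lgals3 (91.4 to 226 CPM) were higher of the 8 counted companions of Trem2, and its signalling partner Tyrobp was at 4.07 and 7.61 CPM. Of 12 cholesterol synthesis genes 0 passed in either direction (median -0.15). Of 8 hypoxia genes Pgk1, a glycolytic enzyme, was higher (287 to 826 CPM), with a list median of 0.70. Without the Cd24a-high cells Angptl4, Acsl1 and Lgals3 were no longer past the fold, while Apoc1, Apoc4, Pparg, Hilpda, Spp1 and Pgk1 still were.

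Within anti-PD-1 tumour cells Apoc4 and Apoc1 were higher both in Trem2 cells and in Cd24a-high cells, while Apoe was higher in the former only. Apoc4 was at 69.6 CPM in cells with 2 or more Trem2 UMIs and 16.6 in cells without, and Apoc1 at 33.2 and 10.1 CPM. Pparg (7.81 against 3.46 CPM) and Hilpda (225 against 83.8 CPM) were also higher in these Trem2 cells. Spp1 (108 against 197 CPM) and Angptl4 (85.2 against 93.5 CPM) were lower. In control, BTYNB and combination Spp1 was likewise lower in Trem2 cells, at 13.5, 6.65 and 8.07 against 18.2, 13.2 and 14.4 CPM. In Cd24a-high cells Apoc4 was at 59.7 CPM, Apoc1 at 27.9 CPM and Pparg at 13.4 CPM, against 15.8, 10.1 and 2.299 CPM in the remaining cells. In the combination against anti-PD-1 Apoc1, Apoc4, Pparg, Angptl4, Hilpda, Spp1 and Cd9 were each at least 2-fold lower. Their combination levels were 2.17, 0.0896, 0.663, 25.5, 36.8, 14.1 and 327 CPM. Of 8 hypoxia genes Pgk1, Slc2a1, Ldha and Egln3 were also lower by that fold. Over all genes 317 of 15881 were lower and 79 higher in this contrast. Without the Cd24a-high cells Apoc1, Apoc4, Spp1 and Pgk1 were still past the fold in it. Pparg, Angptl4, Hilpda, Cd9, Slc2a1, Ldha and Egln3 no longer were.

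In Retnla- macrophages of BTYNB against control, 4 of 10 companions of Trem2 were lower and none higher (median -0.68 against -0.04 over all genes), where 6.26% of all genes were lower and 4.11% higher. They were Gpnmb (96.4 to 13.4 CPM), Cd9 (352 to 86.1), Cd63 (269 to 103) and Ctsd (703 to 237), lysosomal and membrane genes of lipid-laden macrophages. In the combination against anti-PD-1, 0 of the 10 passed (median -0.30), and Gpnmb was also lower in anti-PD-1 against control. The division by Ccr2 was not made for list genes, so the part of Ccr2 cells in these levels was not tested. Of 9 lipoprotein and scavenger receptors Marco and Olr1 were lower, of 6 fatty acid genes Fabp7, a further carrier, was lower (83.3 to 15.6 CPM), and of 12 efflux, LXR and PPAR genes Rxra and Scd2 were lower. Of 9 droplet genes Lipe, a lipase, was higher (5.72 to 19.0 CPM), and of 10 cholesterol synthesis genes Fdft1 was lower. Of 4 counted partners of the TAM receptors Mfge8, which bridges dying cells to phagocytes, was lower (27.0 to 11.003 CPM). In the combination against anti-PD-1, 3 of 5 TAM partners (Gas6, Mfge8 and Timd4) and 5 of 7 hypoxia genes were lower (medians -1.07 and -1.14 against -0.01 over all genes, of which 2.34% were lower and 2.31% higher), and of 12 efflux, LXR and PPAR genes Pparg was higher and Nr1h3 and Scd2 lower.

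By rule, genes past the fold the same way in both contrasts of a treatment are named. In Retnla- macrophages 4 were lower with BTYNB in both: Marco (194, 17.3, 218 and 78.6 CPM), a scavenger receptor of peritoneal macrophages, Scd2 (76.0, 33.6, 81.8 and 30.2), a fatty acid desaturase, Mfge8 (27.0, 11.003, 31.4 and 13.7) and Egln3 (46.6, 20.7, 115 and 24.2), an oxygen sensor. Mfge8 and Egln3 were higher in tumour cells (92.5 to 191 CPM and 161 to 339 CPM), whose markers in the macrophage class also differed between libraries. In tumour cells Vldlr, a lipoprotein receptor, was lower with BTYNB in both contrasts (8.32, 3.13, 14.8 and 3.44 CPM). Msr1, a scavenger receptor at 626 to 1321 CPM in Retnla- macrophages, was higher with anti-PD-1 in both (1.28, 1.35, 3.93 and 3.798 CPM), and the C1q share in tumour cells was higher in the same contrasts.

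Outside the 4 classes, single members marked other leukocytes. Cd36 was at 265 CPM in 523 type 1 dendritic cells of BTYNB and at 325 CPM in 447 of the combination, and 35.8% of the 495 and 43.6% of the 447 left after thinning had a UMI. Type 2 dendritic cells, gated on Cd209a, had 2.80 and 42.1 CPM. Abca1 was at 233 CPM and Abcg1 at 131 CPM in 3100 B cells of BTYNB, above the 99.03 and 93.2 CPM of Retnla- macrophages there. Thinning left 1220 of the B cells, with 1880 shallower ones left out, and 31.7% of the 1220 (29.1 to 34.4%) had an Abca1 UMI. The share was 3.996% of 1126 thinned T cells and 0.606% of 495 thinned type 1 dendritic cells of the library. Before thinning the medians of all B, T and type 1 dendritic cells were 1836, 2025 and 7694 UMIs. Apoe was at 213 CPM in all 3100 B cells and seen in 27.0% of the 1220. The B cell gate allowed no C1q UMI. The 10 macrophage markers, C1q among them, summed to 71.6 CPM in these B cells, with 7 of 10 detected, against 7664 to 9020 CPM in Retnla- macrophages. The tumour genes Msln, Upk3b and Upk1b were at 6.70% of their tumour level. The part of macrophage and tumour RNA in the B cell values was not tested. The 65 B cells of the combination had 26.3 CPM of Abca1 on 11 UMIs and 4.62% with a UMI (0.962 to 12.9%). Control and anti-PD-1 held at most 4 cells of each lymphocyte class.

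Over the 12 values of class and library with at least 50 cells, genes most like each member were found by Pearson's r of log2 CPM with 1 added, among 6734 genes with a mean of at least 20 CPM. The points share libraries and are dominated by the gap between tumour and myeloid cells, so r is a description. Apoe was closest to Stab1 (0.997), Gngt2 and the scavenger receptor Msr1 (0.992). Trem2 was closest to Selenop (0.977), Lgmn and Frmd4a, and Mertk and Abca1 were each among the other's 3 closest genes (0.982), both with Tbc1d13 first. Cd36 was closest to Slc2a6 (0.995), Abcg1 to Cd302 (0.996), Cd84 and the TAM ligand gene Pros1, and Plin2 to the lipid transfer gene Pltp (0.976), Dbi and Leprot. Fabp4 was closest to Alox15 (0.954), Hgsnat and Cd5l, Fabp5 to Slc31a2 (0.9499), Fth1 and Slc7a2, and Lpl to Tmem176b (0.923), Bhlhe40 and Myof. Cd36 was followed by Rgs1 and P2ry10b, Abca1 by Clcn7 and Mertk by Tmcc3.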

How the data were processed

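The authors captured cells on BD Rhapsody, counted UMIs with the vendor's pipeline on build GRCm39, per the submitters' processing notes, and deposited raw UMI counts per gene and cell. Of 46342 cells 45178 were kept. Cells with under 200 genes or over 33% mitochondrial UMIs were removed. Doublets were removed only as an alternative (scrublet score). UMIs were summed by class and library and scaled to CPM. The 10 genes, the other lists and the markers were chosen with earlier results of these data known.

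A gene counted as past the fold at 2-fold or more, on log2 of CPM + 1 (which understates changes of low genes), with at least 50 UMIs over the 2 libraries. Intervals are exact Poisson, conditional binomial for ratios (without the added 1 CPM) and Clopper-Pearson for shares. With 1 library per group no library difference was tested. Differences between classes were tested over the 4 libraries, where each class had at least 10 cells, by an exact two-sided sign-flip permutation test, and p-values measure the spread between these libraries alone. Shares used cells thinned to 2000 UMIs, and a count of 0 allows 3 UMIs. Subtraction took the level of all macrophages times the C1q share from tumour cells, and the tumour level times the Msln, Upk3b and Upk1b share from other cells.

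The text names the 10 genes, other list genes past the fold the same way in both contrasts of a treatment (at most 5 a class), the 3 genes most like each member, and, chosen after their values were seen, list genes past the fold in 1 contrast and the leading genes of Trem2 cells. The splits by Cd24a, Ccr2 and Trem2 were also made after seeing the data. The fold rule was tested on simulated data before use. Python 3.11.15, scanpy 1.11.5, scipy 1.17.1 and numpy 2.4.6 were used. Alternatives were the pseudocount, a common UMI floor, cell means, median-of-ratios scaling, strict gates, removal of likely doublets or of the deepest cells, no cell filter, other Retnla splits, subtraction of other cells' RNA, no UMI minimum, and leaving out each library.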

Additional observations from a re-analysis of the deposited data

Results flagged for a closer look

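The following pairs of log2 ratios had opposite signs with both counting intervals off 0. With 1 library per group none of these differences was tested.

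Cd36 in Retnla- macrophages was lower with BTYNB than in control (-0.97) and higher in the combination than with anti-PD-1 (0.80). It was also lower with anti-PD-1 than in control (-0.54) and higher in the combination than with BTYNB (1.23). Fabp4 in these macrophages had the same pair of signs for BTYNB (-2.25 without and 2.01 with the antibody), on 9 to 150 UMIs a library. Its UMIs were seen in 0.5% to 3.28% of thinned cells. Apoe in tumour cells was higher with BTYNB than in control (0.60) and lower in the combination than with anti-PD-1 (-0.20).

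Tumour cells and Retnla- macrophages had opposite signs in BTYNB against control for Apoe (0.60 and -0.18), Abcg1 (0.51 and -0.36) and Mertk (0.39 and -0.60), and in anti-PD-1 against control for Mertk (0.77 and -0.53). The macrophage sign of Apoe does not hold within the Ccr2 division, where BTYNB was above control both with Ccr2 (1670 against 1293 CPM) and without it (5795 against 4074 CPM). For Cd36 and Abcg1 BTYNB was below control in cells with Ccr2 (77.7 against 205 and 88.2 against 134 CPM). In cells without Ccr2 it was not below control (365 against 335 and 112.5 against 111.8 CPM).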

How the results depend on the processing

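Over the alternatives run, the 129 medians of the members' ratios each moved by less than the SD between members. Single ratios stayed within their counting interval in 1054 cases and left it in 156, and differences between classes kept their direction in 254 cases and reversed in 6.

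The number of members past the fold moved by over 1.5 times as follows. With a pseudocount of 0.1 CPM it was 1 in place of 0 in tumour cells for BTYNB against control and 2 in place of 1 for the combination against anti-PD-1. With a pseudocount of 10 CPM, or other cells' RNA subtracted, it was 1 in place of 2 for anti-PD-1 against control. With means over cells it was 1 in place of 0 in tumour cells for BTYNB against control and for the combination against BTYNB. In Retnla- macrophages for BTYNB against control it was 2 in place of 1 with means over cells, strict gates, the 5% deepest cells left out or no UMI minimum. In Retnla+ macrophages for the combination against BTYNB it was 2 in place of 1 with the common UMI floor, strict gates or no UMI minimum, and in monocytes 3 in place of 5 with the floor. The cause was not tested.

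The difference of Retnla+ from Retnla- macrophages reversed for Lpl (0.08) to -0.094 with the common UMI floor and lay between -0.0013 (without BTYNB) and 0.20 with a library left out. That of Cd36 (0.24) reversed to -0.036 with the floor and -0.11 with strict gates. That of Fabp5 (-0.19) lay between -0.59 (without anti-PD-1) and 0.15 (without control) with a library left out, and was also above 0 without the combination. Strict gates were not run for monocytes, where 14 combination cells were left. No paired analysis was possible because the labels give 1 library per group and no replicate numbers. Depth limits Fabp4 in all classes and every value of Retnla+ macrophages and monocytes in control and anti-PD-1.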
